A study of Homo sapiens with 192 samples.

Results

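Integrins are the receptors by which epithelial cells hold on to extracellular matrix. Each is a pair of an alpha and a beta chain, and the pairing sets the ligand. ITGB1 is shared by many alpha chains, whereas ITGB4 pairs with ITGA6 alone, in the laminin receptor that anchors keratin filaments at hemidesmosomes. ITGA1 and ITGA2, with ITGB1, bind collagens, ITGA3 and ITGA6 bind laminins, ITGA5 with ITGB1 is the fibronectin receptor, and ITGAV pairs with ITGB5 or ITGB6 to bind ligands such as vitronectin and latent TGF-beta. The 10 genes described here are these subunits of colonic epithelial cells, chosen by name and found by their Ensembl identifiers, out of 58243 genes counted and out of 26 integrin subunit genes listed among them. The choice was made with earlier results of these data known, so that their counts beside shares of all tested genes are descriptions.

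Their mRNAs were counted in 4 human CRC cell lines as 2D and as 3D cultures, 3 libraries for each line and condition (8 groups, 24 libraries). HT29 and LS513 are microsatellite stable carcinoma lines, whereas HCT116 and LS174T are microsatellite unstable. HCT116 was kept in McCoy medium and the other lines in DMEM, so that line and medium cannot be told apart where HCT116 is compared with another line. The labels give growth as 2D or 3D and do not say how long the cells were grown or whether the libraries of a group came from separate cultures, so that p-values measure only the spread between these libraries, which may be technical. Spheroids elsewhere in the study were formed in low attachment plates, whereas the plates of these libraries are not stated in the labels.

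Library totals lay between 18723942 and 34277421 counts. A gene with 3 counts or fewer in a library was regarded as at the detection floor, which is between 0.0875 and 0.160 CPM, a count relative to its library total in the usual scaling. Levels are given below as CPM after TMM scaling, as mean ± SD of 3 libraries. The share of mitochondrial counts was between 1.14% and 6.40%, with the highest value in replicate 1 of HCT116 grown in 3D, where the other 3D libraries had 2.45% and 1.66%. Of 10 epithelial colon markers, 8 were over the floor in all 24 libraries and 10 in at least 1, with summed levels from 3893 to 4840 CPM in HCT116 grown in 2D up to 14852 to 17410 CPM in HT29 grown in 2D. KRT20, VIL1, LGALS4 and CEACAM5, which mark differentiated colonic cells, were as low as 20, 4, 3 and 0 counts in single libraries. Of 8 fibroblast markers, 3 were over the floor in at least 1 library, with summed levels of 10.1 to 21.8 CPM in HCT116 grown in 3D. COL1A1 reached 655 counts in a library, whereas COL1A2 had 0 counts in every library. All 5 endothelial markers were over the floor in at least 1 library, with summed levels up to 3.09 CPM, in HT29 grown in 3D. The T cell marker CD3E had 0 counts in every library. Of 8 leukocyte markers, 5 were over the floor in at least 1 library, and the summed level of all 8 was 1251 to 1399 CPM in the HT29 libraries grown in 2D and 2355 to 2597 CPM in those grown in 3D. In the other lines it was between 4.35 and 86.1 CPM, and its part in the growth effects was not tested. In bulk RNA, fewer cells that express a gene and less mRNA per cell cannot be told apart.

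All 10 integrin genes passed the filter on low counts, as did 19387 genes in total. 3D was compared with 2D in each line with edgeR's quasi-likelihood test, and genes with a Benjamini-Hochberg adjusted p under 0.05 over all tested genes are called changed. In HT29, 6 integrin mRNAs were lower in 3D and 0 were higher, where 40.7% of all tested genes were called, 19.6% lower and 21.1% higher. In HCT116 the direction was the opposite: 6 were called higher and 0 lower, where 29.1% of tested genes were called, 16.8% higher and 12.3% lower, and 5 remain higher when ITGB6, with 1 to 4 counts per 3D library there, is set aside. In LS513, 4 were higher and 1 lower (13.7% and 9.90% of tested genes, 23.6% in all), and in LS174T 1 was higher and 2 were lower (13.1% and 9.15%, 22.2% in all). Each of the 10 genes was called in at least 1 line, as were 60.9% of tested genes. The 10 genes had a median log2 fold change of -0.55 in HT29 and 0.51 in HCT116, and of 0.04 and -0.13 in LS513 and LS174T, beside medians of 0.00 to 0.02 over all tested genes. The first of these includes ITGA5 in HT29 and the second ITGB6 in HCT116, whose values rest on counts at or near the floor. Without them the middle values were those of ITGA3 in HT29 (-0.40) and of ITGB5 in HCT116 (0.34). At an unadjusted p under 0.05, 0 integrin mRNAs were higher in HT29 and 1 (ITGA1) was lower in HCT116, and DESeq2 called 0 in either case. The 2D and 3D libraries did not overlap for 5 of the 10 genes in HT29, 7 for LS513, 7 for HCT116 and 4 for LS174T, where they did not overlap for 52.9%, 42.9%, 40.4% and 38.5% of tested genes. Among the 7 in HCT116 is ITGB6, whose highest 2D and lowest 3D library each had 1 count (0.0321 and 0.0334 CPM). These libraries are apart only by the scaling for library size. As the mean over the 4 lines, 2 genes (ITGB4 and ITGB6) were called higher and 4 (ITGA1, ITGA6, ITGAV and ITGB1) lower. Of tested genes, 50.5% were called, 26.6% higher and 23.9% lower. The value of ITGB6 rests in part on its few counts in HCT116. In single lines, ITGB4 was called in HCT116 alone (1.60), ITGA6, ITGAV and ITGB1 in HT29 alone and ITGA1 in LS513 alone. ITGA6 and ITGB1 were over 0 in HCT116 (0.29 and 0.17, not called). Over the lines, ITGA5 was not called (adjusted p = 0.89, edgeR). Its mean includes HT29, where it was not detected, so that this says little about the other 3 lines. The ITGA1 call over lines (-0.35, adjusted p = 0.032, edgeR) was lost in 13 of 24 fits that leave out a library, with adjusted p-values of 0.051 to 0.077 and libraries of every line among those left out.

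**Figure D1:**
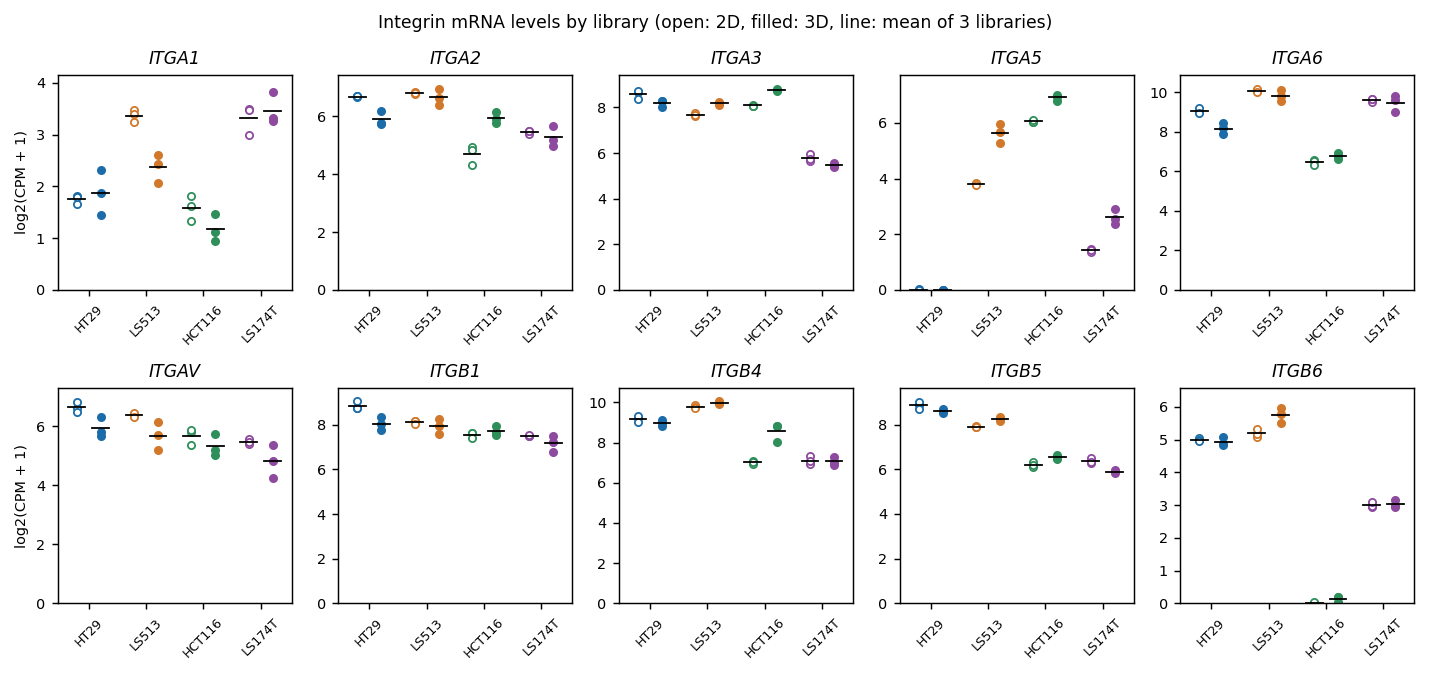
Levels of the 10 integrin mRNAs in every library as log2(CPM + 1), by line, with open points for 2D, filled points for 3D and a bar at the mean of 3 libraries. ITGA5 sits at 0 in HT29 and ITGB6 near 0 in HCT116, while ITGB4 and ITGA2 stand higher in 3D in HCT116 and ITGA6 and ITGB1 stand lower in 3D in HT29.

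The growth effect differed between lines for most of these genes. A test of any difference among the 4 growth effects called 9 of the 10 genes, where it called 17.1% of tested genes, and ITGAV was the gene not called (adjusted p = 0.86, edgeR). The ITGB1 call was lost in 10 of 24 fits that leave out a library (adjusted p = 0.051 to 0.14, edgeR), namely each 2D library of HT29, replicates 1 and 3 of HT29 in 3D, replicates 1 and 3 of HCT116 in 2D, its replicates 2 and 3 in 3D, and replicate 1 of LS513 in 3D. The other 8 genes were called in all 24 of these fits. ITGA2, ITGA3 and ITGB5 were called higher in 3D in at least 1 line and lower in at least 1 other, 3 of 10 genes where 2.88% of tested genes had such opposite calls. No integrin gene was called in the same direction in all 4 lines. For ITGA5 this could not occur, since it was called higher in 3 lines and was not detected in HT29. Between HT29 and HCT116 the growth effects of 7 genes differed, all with the more negative value in HT29, where 7.76% of tested genes were called and 4.97% in that direction. These are ITGA2, ITGA3, ITGA6, ITGB1, ITGB4, ITGB5 and ITGB6, and 6 of them remain without ITGB6. HT29 and LS174T differed for ITGA6 alone, with a difference of -0.77 on the log2 scale (95% interval -1.25 to -0.30, adjusted p = 0.043, edgeR), where 6.65% of tested genes were called. The effects of 4 genes differed between HT29 and LS513 (12.1% of tested genes), of 3 between LS513 and HCT116 (4.34%), of 3 between LS513 and LS174T (3.62%) and of 4 between HCT116 and LS174T (4.75%).

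**Figure D2:**
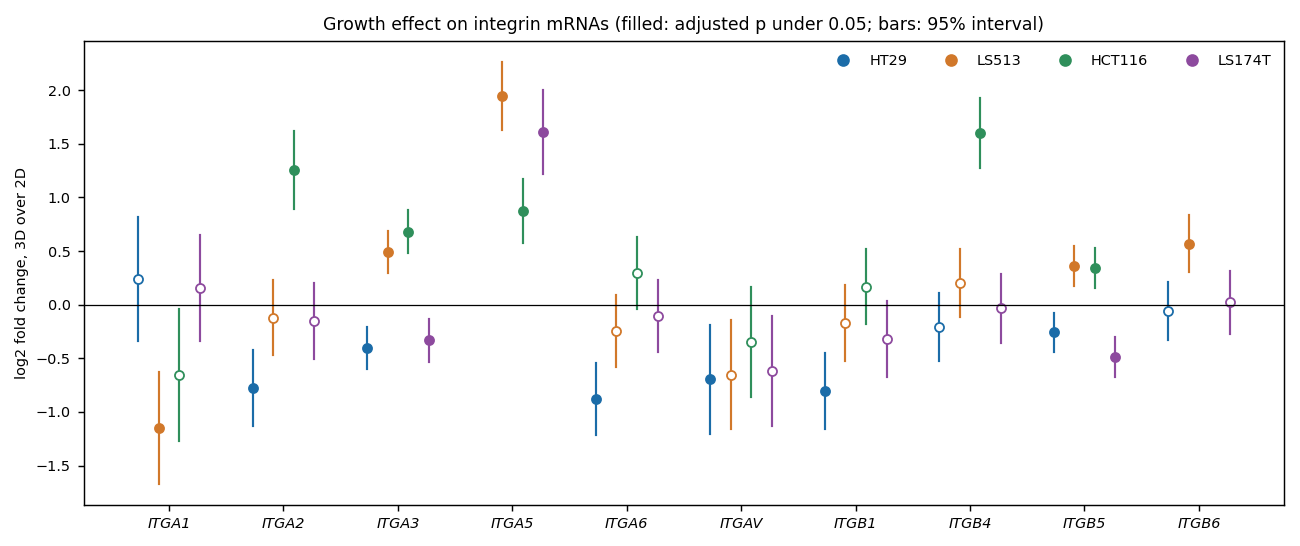
Log2 fold change of 3D over 2D for each integrin mRNA in each line from the edgeR fit, with 95% intervals, and filled points where the adjusted p is under 0.05. The HT29 points lie under 0 for all genes but ITGA1, the HCT116 points of ITGA2, ITGA3, ITGA5, ITGB4 and ITGB5 lie over 0, and ITGA5 in HT29 and ITGB6 in HCT116 are left out because their counts are at or near the floor.

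ITGA5, the alpha chain of the fibronectin receptor (ENSG00000161638, chr12:54395261-54419460 on the minus strand of GRCh38), was called higher in 3D in 3 lines, and of the 10 genes it had the largest change in LS513 and in LS174T. In LS513 it was at 12.9, 13.2 and 12.7 CPM in 2D and at 61.6, 50.2 and 37.8 CPM in 3D. The lowest 3D library was well over the highest 2D library, and the log2 fold change was 1.95 (SE 0.15, adjusted p = 1.1e-08, edgeR). In LS174T the levels were low, 1.79, 1.59 and 1.72 CPM in 2D and 6.53, 4.19 and 4.82 CPM in 3D, a log2 fold change of 1.61 (SE 0.19, adjusted p = 3.9e-06, edgeR). HCT116 started highest, with 64.8, 64.1 and 67.1 CPM in 2D, and reached 128, 121 and 110 CPM in 3D, a log2 fold change of 0.87 (SE 0.14, adjusted p = 1.3e-04, edgeR). The 2D and 3D libraries did not overlap in any of these 3 lines. The rise in LS513 was larger than in HCT116 by 1.07 on the log2 scale (SE 0.21, adjusted p = 0.0032, edgeR).

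In HT29, ITGA5 was not detected: 1 count was found in the 3 libraries grown in 2D and 0 in the 3 grown in 3D, and no fold change is given. Against the highest floor of 3 counts in an HT29 library, its mean level in HCT116 was at least 397-fold higher in 2D and at least 1101-fold higher in 3D. ITGB6, the beta chain that with ITGAV activates latent TGF-beta (ENSG00000115221, chr2:160099666-160200313, minus strand), was the mirror of this in HCT116. It had 0, 0 and 1 counts in the 2D libraries of HCT116 and 4, 4 and 1 counts in the 3D libraries, whereas its mean level in 2D was at least 373-fold higher in LS513 and at least 320-fold higher in HT29. The 9 counts in 3D against 1 in 2D give a ratio of 9.84 with an exact 95% counting interval of 1.36 to 431, so that the call of ITGB6 in HCT116 rests on single counts. In LS513, ITGB6 rose from 33.1, 35.3 and 39.3 CPM in 2D to 53.6, 44.5 and 61.8 CPM in 3D, a log2 fold change of 0.57 (SE 0.13, adjusted p = 0.0024, edgeR). It was near 30 CPM in every HT29 library, with 30.8 ± 0.96 CPM in 2D and 29.7 ± 3.0 CPM in 3D, and 7.03 ± 0.43 and 7.14 ± 0.65 CPM in LS174T.

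Each of these genes was at or near the floor in a single line, and the sequences at their starts are therefore shown. The window runs from 250 bases before to 50 bases after the start that RefSeq gives, so that base 251 is the first of the transcript, on GRCh38.p14, read 5′ to 3′ on the strand of the gene. Capitals mark the AP-1 site TGANTCA and the TEAD core GGAATG, each searched on both strands. The ITGA5 window is chr12:54419217-54419516 and the ITGB6 window is chr2:160200223-160200522, both on the minus strand.
ITGA5: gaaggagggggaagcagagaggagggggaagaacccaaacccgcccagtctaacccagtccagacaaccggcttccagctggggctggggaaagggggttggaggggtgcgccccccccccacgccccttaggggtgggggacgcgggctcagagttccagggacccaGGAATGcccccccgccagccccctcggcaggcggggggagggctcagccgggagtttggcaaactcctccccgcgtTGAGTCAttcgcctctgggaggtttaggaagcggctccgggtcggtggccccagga
ITGB6: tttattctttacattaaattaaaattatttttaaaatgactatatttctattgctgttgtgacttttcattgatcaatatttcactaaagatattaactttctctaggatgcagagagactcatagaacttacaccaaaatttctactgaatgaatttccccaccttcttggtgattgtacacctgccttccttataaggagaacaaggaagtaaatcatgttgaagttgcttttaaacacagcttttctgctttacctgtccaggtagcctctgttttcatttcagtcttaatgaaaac
The ITGA5 window is 69.3% G or C with 16 CpG dinucleotides, and it holds 1 AP-1 site at bases 245 to 251 and a TEAD core at bases 169 to 174. The pattern TGANTCA reads the same on both strands, so that any such site matches on both. The ITGB6 window is 31.7% G or C with 0 CpG and has neither motif. Over 35116 windows of this length the medians were 58.7% G or C and 14 CpG, 7.71% held the AP-1 letters and 14.0% the TEAD letters. Windows were found for 8 of the 10 integrin genes (13 windows, since ITGA6, ITGAV, ITGB1 and ITGB5 have more than 1 start). None is listed for ITGA3 and ITGB4. The SP1 box GGGCGG, held by 44.95% of all windows, was in a window of ITGA2, ITGA5, ITGA6, ITGB1 and ITGB5. The hypoxia response core ACGTG, held by 21.4% of all windows, was in windows of ITGA6 alone. These matches describe letters only.

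The laminin-binding chains held most of the alpha mRNA. Levels of different genes were compared per kilobase of exon, as shares of the summed level of all alpha or all beta subunits. ITGA6 (ENSG00000091409, chr2:172427354-172506282, plus strand) made up 85.6% ± 0.8 of alpha mRNA in LS174T grown in 2D, 76.8% ± 1.1 in LS513, 54.5% ± 1.5 in HT29 and 21.4% ± 1.1 in HCT116. In HCT116 the leading alpha chain was ITGA3, with 43.4% ± 1.8 in 2D and 47.0% ± 1.9 in 3D, followed in 2D by ITGA6. HCT116 was also the line in which ITGA5 held a large share, 13.6% ± 0.95 in 2D and 16.8% ± 1.7 in 3D, against 0.79% ± 0.02 and 3.39% ± 1.1 in LS513. In HCT116 grown in 3D the ITGA6 share was 17.8% ± 1.6 and the libraries of ITGA5 and ITGA6 overlapped. With the longest transcript in place of all exons, ITGA3 (41.8%) and ITGA6 (40.2%) change places in HT29 grown in 3D, and ITGA5 (16.7%) stood ahead of ITGA6 (13.5%) in HCT116 grown in 3D. ITGA1 held at most 0.43% of alpha mRNA in any group.

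**Figure D3:**
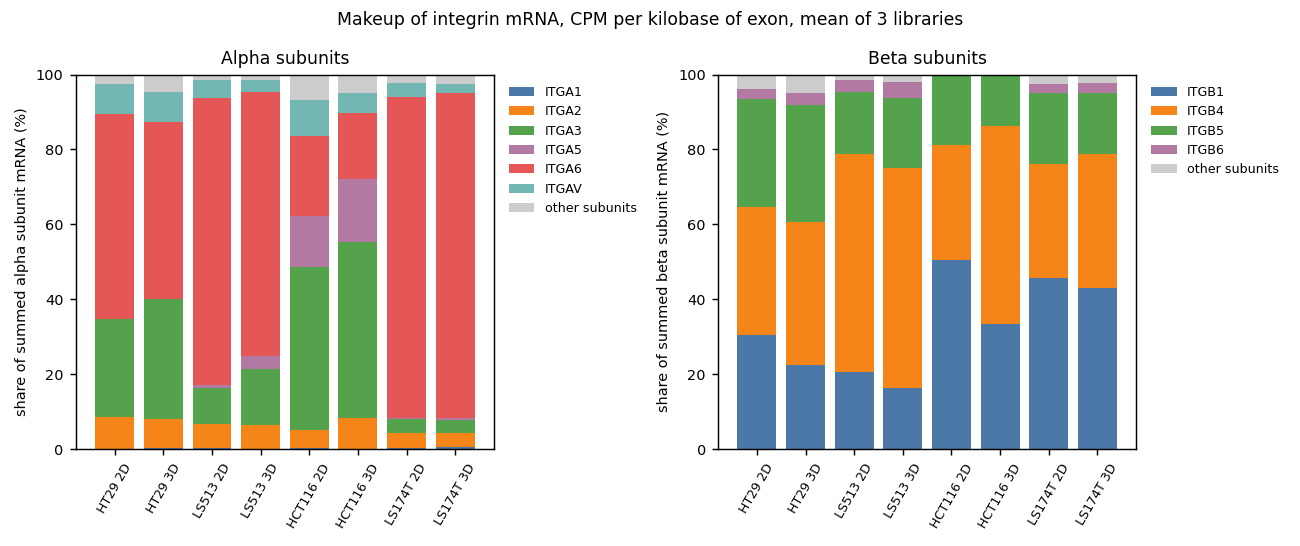
Share of each subunit in the summed alpha (left) or beta (right) integrin mRNA, in CPM per kilobase of exon, as the mean of 3 libraries per group, with other subunits in grey. ITGA6 fills most of the alpha bar in LS174T and LS513, ITGA3 leads in HCT116, and the ITGB4 share in HCT116 is larger in 3D than in 2D.

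ITGA6 was called in HT29 and in no other line, and fell there from 519, 585 and 495 CPM in 2D to 289, 236 and 344 CPM in 3D. All 3D libraries were under all 2D libraries, and the log2 fold change was -0.88 (SE 0.16, adjusted p = 1.9e-04, edgeR). In the other lines it was -0.24 in LS513, -0.11 in LS174T and 0.29 in HCT116, with adjusted p-values of 0.31, 0.68 and 0.19 (edgeR). The difference from HT29 itself was called for HCT116 (-1.18, adjusted p = 0.0016, edgeR) and LS174T, and was not called for LS513. LS513 had the most ITGA6 mRNA in 2D, 1090 ± 72 CPM, and HCT116 the least, 89.1 ± 8.7 CPM. In 2D every pair of lines differed, and in 3D LS513 and LS174T did not differ beyond their spread (adjusted p = 0.078, edgeR).

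ITGB4, the partner of ITGA6 in hemidesmosomes (ENSG00000132470, chr17:75721328-75757818, plus strand), was called in HCT116 alone. There it rose from 136, 119 and 129 CPM in 2D to 446, 458 and 259 CPM in 3D. Replicate 3 of the 3D group was the lowest and still above every 2D library, and the log2 fold change was 1.60 (SE 0.16, adjusted p = 1.0e-07, edgeR). The rise was larger than the change in HT29 by 1.81, in LS513 by 1.40 and in LS174T by 1.64 on the log2 scale, all called, with adjusted p-values of at most 3.1e-04 (edgeR). In the other lines the log2 fold changes of ITGB4 were -0.21 (HT29), 0.20 (LS513) and -0.03 (LS174T). Its share of beta mRNA in HCT116 was 30.7% ± 1.8 in 2D and 52.9% ± 10.9 in 3D, and that of ITGB1 was 50.5% ± 2.7 and 33.3% ± 8.6. In HT29 the ITGB4 share was 34.1% ± 0.80 in 2D and 38.2% ± 3.0 in 3D, ahead of ITGB1 and ITGB5, but with the longest transcript in place of all exons ITGB1 led in 2D and ITGB5 (33.8%) in 3D. The ratio of ITGA6 to ITGB4 per kilobase was 0.72 ± 0.08 in HCT116 grown in 2D and 0.32 ± 0.15 in 3D, and 0.95 ± 0.03 and 0.60 ± 0.10 in HT29. In LS174T, where ITGA6 was high and ITGB4 low, it was 6.03 ± 1.09 in 2D and 5.85 ± 2.23 in 3D.

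ITGA3, the laminin-binding chain that pairs with ITGB1 (ENSG00000005884, chr17:50055968-50090481, plus strand), was called in every line, up in LS513 and HCT116 and down in HT29 and LS174T. In HCT116 it was at 277, 265 and 268 CPM in 2D and at 429, 450 and 421 CPM in 3D, a log2 fold change of 0.68 (SE 0.10, adjusted p = 1.4e-05, edgeR). LS513 had 213, 195 and 204 CPM in 2D and 300, 292 and 270 CPM in 3D, a log2 fold change of 0.49 (SE 0.10, adjusted p = 5.7e-04, edgeR). The 2D and 3D libraries were apart in both lines. In HT29 it fell from 402, 423 and 330 CPM to 311, 256 and 305 CPM, a log2 fold change of -0.40 (SE 0.10, adjusted p = 0.0017, edgeR). In LS174T it fell from 60.2, 49.3 and 53.1 CPM to 42.7, 46.2 and 40.4 CPM, a log2 fold change of -0.33 (SE 0.10, adjusted p = 0.019, edgeR). The LS174T call was lost without replicate 1 of its 2D group (-0.25, adjusted p = 0.11, edgeR). The order of the lines differed between conditions, and HT29 was highest in 2D (385 ± 49 CPM) and HCT116 in 3D (433 ± 15 CPM), both differing from the next line.

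Of the collagen-binding chains, ITGA2 (ENSG00000164171, chr5:52989326-53094779, plus strand) split HT29 from HCT116. In HT29 it fell from 103, 99.0 and 101 CPM in 2D to 53.2, 52.2 and 71.4 CPM in 3D, a log2 fold change of -0.78 (SE 0.17, adjusted p = 9.3e-04, edgeR). In HCT116 it rose from 29.2, 27.4 and 19.0 CPM to 53.5, 58.4 and 69.1 CPM, a log2 fold change of 1.26 (SE 0.17, adjusted p = 1.3e-05, edgeR). The groups did not overlap in either line, and the effects differed by 2.04 on the log2 scale (95% interval 1.53 to 2.54). HT29 and HCT116 differed 4.01-fold in 2D, and in 3D they were at 58.9 ± 10.8 and 60.3 ± 8.0 CPM (adjusted p = 0.88, edgeR). ITGA2 was not called in LS513 (-0.12) or LS174T (-0.15).

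ITGA1, the other collagen-binding chain (ENSG00000213949, chr5:52787896-52959210, plus strand), was at a low level, with 28 to 426 counts per library. It fell in LS513 from 8.43, 10.1 and 9.47 CPM in 2D to 4.37, 3.20 and 5.06 CPM in 3D, a log2 fold change of -1.15 (SE 0.25, adjusted p = 0.0018, edgeR). It was not called in HT29 (0.24), HCT116 (-0.66) or LS174T (0.16), and in HCT116 it passed without replicate 3 of either group (adjusted p = 0.046 without the 2D library and 0.037 without the 3D library, edgeR). ITGA1 shares 475 exonic bases on the same strand with PELO, which had 805 to 2065 counts per library, so that its level is uncertain where reads fall in the shared part. ITGB6 shares 20.6% of its exonic bases with a transcript on its strand that the counted annotation does not list.

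The shared chain ITGB1 (ENSG00000150093, chr10:32900319-33005792, minus strand) fell in HT29 from 425, 542 and 427 CPM in 2D to 260, 217 and 322 CPM in 3D, a log2 fold change of -0.80 (SE 0.17, adjusted p = 6.8e-04, edgeR). The groups did not overlap. LS513 gave -0.17, HCT116 0.17 and LS174T -0.32, none called, and the difference between HT29 and HCT116 was -0.97 (95% interval -1.47 to -0.48, adjusted p = 0.012, edgeR). HT29 had the highest ITGB1 level in 2D, 465 ± 67 CPM against 280 ± 14 in LS513, and in 3D these lines no longer differed beyond their spread (266 ± 53 and 249 ± 55 CPM, adjusted p = 0.66, edgeR).

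Of the RGD-binding group, ITGAV (ENSG00000138448, chr2:186590065-186680901, plus strand) was the gene whose growth effect was not called different between lines. Its log2 fold change was -0.69 in HT29 (adjusted p = 0.028), -0.65 in LS513 (0.058), -0.62 in LS174T (0.077) and -0.35 in HCT116 (0.32), all from edgeR. As the mean over lines it was lower in 3D, with -0.58 (SE 0.12, 95% interval -0.83 to -0.32, adjusted p = 4.3e-04, edgeR), in a contrast where 23.9% of tested genes were called lower. In HT29 the libraries were at 97.7, 88.5 and 112 CPM in 2D and 55.0, 50.4 and 79.2 CPM in 3D. The HT29 call was lost without replicate 1 or 3 of either HT29 group, with adjusted p-values of 0.075 to 0.15 (edgeR). In LS174T it was called without replicate 3 of the 3D group (-0.95, adjusted p = 0.0092), and in LS513 without any of 5 libraries, among them replicate 3 of the 3D group (-0.92, adjusted p = 0.013, edgeR).

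ITGB5, which with ITGAV binds vitronectin (ENSG00000082781, chr3:124761948-124901418, minus strand), had the same pattern of calls as ITGA3. LS513 went up from 248, 236 and 235 CPM in 2D to 310, 325 and 288 CPM in 3D, a log2 fold change of 0.36 (SE 0.09, adjusted p = 0.0052, edgeR). In HCT116 it rose from 78.3, 68.5 and 73.2 CPM to 87.8, 91.2 and 100 CPM, a log2 fold change of 0.34 (SE 0.09, adjusted p = 0.0065, edgeR), a call that was lost without replicate 3 of the 3D group (0.26, adjusted p = 0.056). In LS174T it fell from 91.2, 77.0 and 78.3 CPM to 59.3, 61.4 and 55.4 CPM, a log2 fold change of -0.49 (SE 0.09, adjusted p = 7.0e-04, edgeR). In HT29 the libraries overlapped, with 469, 522 and 419 CPM in 2D and 385, 372 and 422 CPM in 3D. The HT29 log2 fold change of -0.26 (adjusted p = 0.025, edgeR) was lost in 11 of 24 fits that leave out a library, and with other scaling (-0.22, adjusted p = 0.052). HT29 held the most ITGB5 mRNA, 470 ± 52 CPM in 2D against 73.3 ± 4.9 CPM in HCT116.

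Summed over the 10 genes, integrin mRNA was 2668 ± 246 CPM in HT29 grown in 2D and 1896 ± 217 CPM in 3D, and the libraries did not overlap. In HCT116 the sum was 891 ± 43 CPM in 2D and 1456 ± 71 CPM in 3D, again without overlap and in the other direction. LS513 had the most in both conditions, 2948 ± 119 and 3043 ± 230 CPM, and LS174T had 1347 ± 23 and 1202 ± 229 CPM. Between lines, 51 of 60 comparisons of a gene between a pair of lines were called in 2D and 50 of 60 in 3D. In 2D these were 7 of 10 genes for HT29 and LS513 (60.6% of tested genes), 9 for HT29 and HCT116 (68.8%), 10 for HT29 and LS174T (64.6%), 10 for LS513 and HCT116 (68.3%), 9 for LS513 and LS174T (57.6%) and 6 for HCT116 and LS174T (68.3%). In 3D they were 6 (61.9%), 8 (68.5%), 10 (65.5%), 8 (68.5%), 9 (60.9%) and 9 (67.2%) for the same pairs. ITGAV differed in 4 of 6 pairs in 2D, as did ITGA1, and in 3 of 6 in 3D, as did ITGB1, and no pair of neighbours in its 3D order differed beyond the spread.

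Some of these genes moved together between libraries of a group. In all 4 lines, the same 3D library was lowest in ITGA6, ITGB1 and ITGAV: replicate 3 in HT29, replicate 2 in LS513 and LS174T and replicate 1 in HCT116. In LS174T grown in 3D, for instance, ITGA6 was at 773, 521 and 899 CPM, ITGB1 at 148, 108 and 183 CPM and ITGAV at 27.3, 17.9 and 40.2 CPM. In 3 of the 4 groups grown in 3D, all but LS174T, that library also had the highest share of mitochondrial counts of its group, 2.85% in HT29, 3.44% in LS513 and 6.40% in HCT116, and the part of this in the growth effects was not tested. Without replicate 1 of HCT116 grown in 3D, the HCT116 changes of ITGB4 (1.47), ITGA2 (1.32), ITGA3 (0.67), ITGA5 (0.81) and ITGB5 (0.37) were still called. Over the 24 libraries, after the mean of each line was taken off, the log2 levels of ITGA6 and ITGB1 had a correlation of r = 0.96, ITGA3 and ITGB5 of 0.89, and ITGAV and ITGB1 of 0.81, whereas ITGA6 and ITGB4 had 0.20. These libraries share the growth condition, so the values are descriptions.

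**Figure D4:**
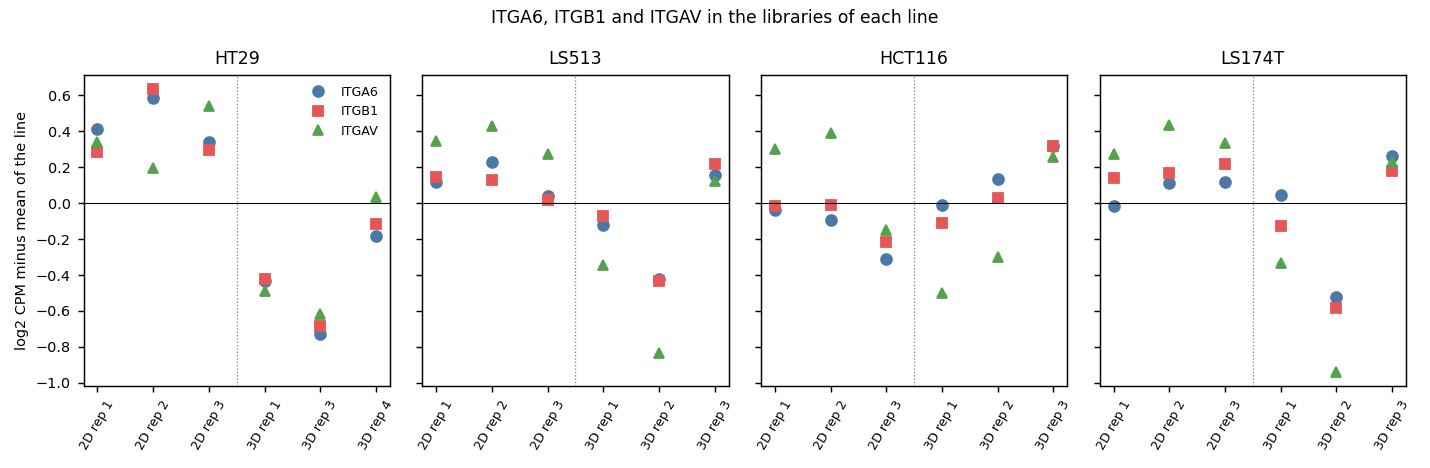
Log2 CPM of ITGA6, ITGB1 and ITGAV in each library less the mean of the line, by line, with the 2D libraries left and the 3D libraries right of the dotted line. The symbols move together in the 3D libraries, and the lowest 3D library is the same for all 3 genes in each line.

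By the same measure, the genes most like each integrin among 10325 genes of at least 10 CPM were ADAM9 (r = 0.95) and YAP1 (0.94) for ITGA6, ADAM9 (0.96) and SEL1L (0.94) for ITGB1, and ZBTB41 and YTHDF3 (both 0.98) for ITGAV. ITGB4 was most like KRT13 (0.93) and COL17A1 (0.93), ITGA3 most like KLK6 (0.93) and AHNAK2 (0.92), and VSIR had 0.94 with ITGA5. ITGA2 was most like MACC1 and GALNT5 (both 0.88), ITGB5 most like OGDH and CTSE (both 0.89), ITGB6 most like NGLY1 and CEACAM1 (both 0.87) and ITGA1 most like IFT81 (0.86) and TM7SF3 (0.84).

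Of the genes that build hemidesmosomes with ITGA6 and ITGB4, 8 of 9 listed were tested. In HCT116 6 were higher in 3D and 0 lower, in LS513 4 were higher and 0 lower, in HT29 0 were higher and 4 lower, and in LS174T 0 were higher and 2 lower. Of all tested genes, 16.8% were higher in HCT116 and 13.7% in LS513, and 19.6% were lower in HT29 and 9.15% in LS174T. Among those called were LAMA3, PLEC and DST in HT29, LAMA3, LAMB3 and CD151 in LS513, and LAMA3 and KRT5 in LS174T. KRT5 averaged 0.147 CPM, within the range of the detection floor (0.0875 to 0.160 CPM), and its values are included in the medians that follow. It also counts among the 6 of HCT116, as do COL17A1, CD151, LAMA3 and LAMB3. The median log2 fold changes were 0.97, 0.44, -0.51 and -0.37 in the same order. LAMB3, a laminin beta chain, rose in HCT116 (44.5 ± 11.7 to 146 ± 34 CPM) and in LS513 (111 ± 4.5 to 260 ± 57 CPM). COL17A1, the transmembrane collagen of hemidesmosomes, rose in HCT116 from a low level (1.90 ± 0.53 to 6.66 ± 2.20 CPM). PLEC, the linker to keratin filaments, fell in HT29 by 0.92 on the log2 scale. The test of a difference between lines called 6 of these 8 genes, where it called 17.1% of tested genes.

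**Figure D5:**
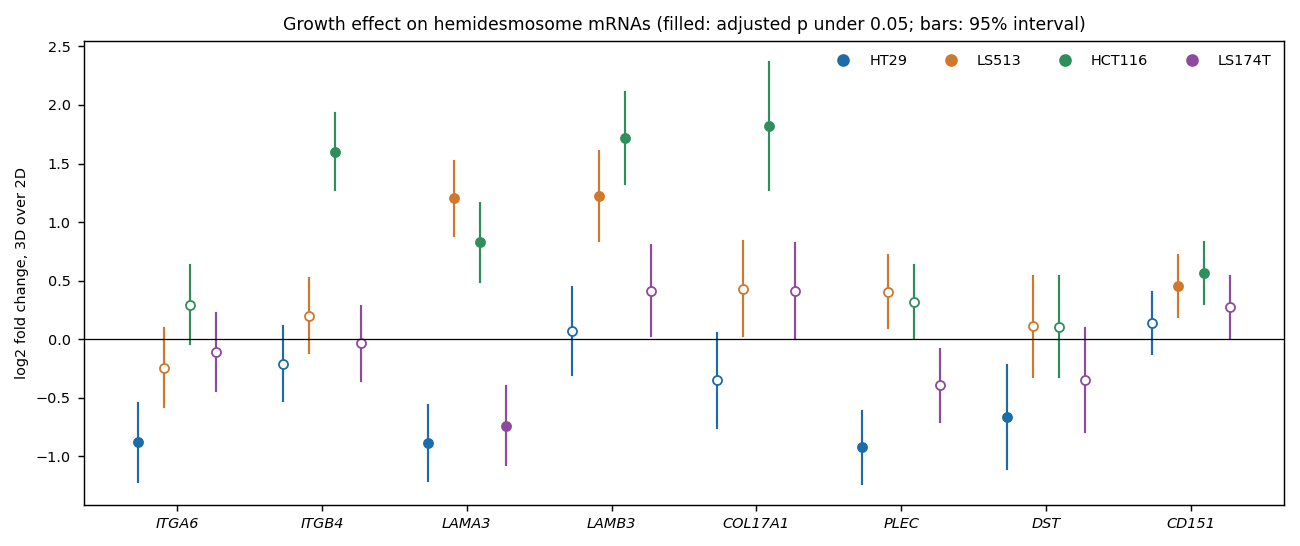
Log2 fold change of 3D over 2D for ITGA6, ITGB4, LAMA3, LAMB3, COL17A1, PLEC, DST and CD151, by line, with 95% intervals and filled points where the edgeR adjusted p is under 0.05. Most HCT116 and LS513 points lie over 0 and most HT29 points lie under it, for example 1.72 and 1.22 for LAMB3 in HCT116 and LS513 and -0.92 for PLEC in HT29.

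Among integrin ligands, which include LAMA3 and LAMB3, 34 of 37 were tested. HCT116 had 14 higher and 0 lower, HT29 0 higher and 9 lower, LS513 9 higher and 2 lower, and LS174T 1 higher and 5 lower. Of all tested genes, 16.8% were higher and 12.3% lower in HCT116, 21.1% and 19.6% in HT29, 13.7% and 9.90% in LS513 and 13.1% and 9.15% in LS174T. MFGE8, an RGD protein bound by ITGAV integrins, rose in HCT116 (1.12) and LS513 (0.59). TNC, a matrix glycoprotein, fell in HT29 from 26.6 ± 14.4 to 0.653 ± 0.100 CPM, a change of -5.33 on the log2 scale (SE 0.36, adjusted p = 3.7e-10, edgeR), and in LS174T by 1.08 on the log2 scale. FN1, the ligand of ITGA5, rose by 1.57 in LS513 and fell by 2.91 on the log2 scale in HT29, and was at 0.78 in HCT116 (adjusted p = 0.065, edgeR). ADAM9, a disintegrin protease, fell in HT29 (-0.99). The single ligand called higher in LS174T was LAMA1 (0.108 ± 0.035 to 0.474 ± 0.175 CPM, near the floor), and those lower there were TNC, LAMA3, COL4A2, FBN1 and NPNT. In LS513 the lower ones were LAMB1 (-0.37) and TGFB3 (-1.18).

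Of the adaptors that bind integrin tails, 38 of 39 were tested, with 6 higher and 13 lower in HT29, 12 and 3 in LS513, 8 and 5 in HCT116 and 5 and 7 in LS174T. In the same order, 21.1% and 19.6%, 13.7% and 9.90%, 16.8% and 12.3%, and 13.1% and 9.15% of all tested genes were called, so that both counts in HCT116 and the higher ones in HT29 and LS174T lie near the background. FLNA, the filamin that binds beta tails and actin, fell in HT29 from 2712 ± 436 to 290 ± 42 CPM, a change of -3.22 on the log2 scale (SE 0.17, adjusted p = 2.0e-11, edgeR). It also fell in LS174T (-0.86) and was not called in HCT116 (-0.07) or LS513 (0.05). TLN1, VCL and PXN, the talin, vinculin and paxillin of focal adhesions, were lower in HT29 (-0.61, -1.09 and -0.78) and were not called in the other lines. TNS4 fell in HT29 (-1.54), LS174T (-0.56) and LS513 (-0.44), and the scaffold NEDD9 rose in LS513 (2.74), HCT116 (2.21) and LS174T (1.10). Beside TNS4, KANK1 and KANK2 were lower in LS513, and the 5 lower in HCT116 were KANK1, LIMS1, PARVA, TLN2 and TNS3. The 5 higher in LS174T were NEDD9, TNS1, TNS2, TES and CIB1.

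All 12 membrane proteins that associate with integrins were tested, with 5 higher and 2 lower in HT29, 8 and 1 in LS513, 5 and 0 in HCT116 and 5 and 0 in LS174T. The background in the same order was 21.1% and 19.6%, 13.7% and 9.90%, 16.8% and 12.3%, and 13.1% and 9.15% of tested genes. The tetraspanins CD9 (log2 fold changes of 0.41 to 0.64) and CD82 (0.32 to 0.74) were called higher in all 4 lines, as 3.14% of tested genes were. PLAUR, the urokinase receptor, rose in HCT116 (2.03) and LS513 (1.29). The tetraspanin TSPAN8 rose in HT29 (1.16) and LS174T (1.04), and the hyaluronan receptor CD44 was higher in HT29 (0.43) and LS174T (0.27) and lower in LS513 (-0.26). CD63 was higher in HT29, HCT116 and LS513, CD47 in LS513 (0.57) and LS174T (0.32) and CD151 in HCT116 and LS513, and SLC3A2 was lower in HT29 (-0.46) and higher in LS513 (0.74), while TSPAN4 was lower in HT29. All 10 trafficking genes were tested, with 3 higher and 2 lower in HT29, 3 and 0 in LS513, 2 and 0 in HCT116 and 3 and 0 in LS174T, each within 2 genes of what the shares of all tested genes just given would yield. RAB25, a small GTPase of integrin recycling, was called higher in all 4 lines, with log2 fold changes from 0.53 in LS174T to 0.74 in HT29. CLIC3, which acts with it in returning ITGA5 integrin to the surface, was also called higher in all 4 lines, from 2.56 in HT29 (3.20 ± 0.15 to 18.9 ± 2.7 CPM) to 3.66 in LS513 (0.785 ± 0.364 to 9.95 ± 3.06 CPM). RAB21, which binds alpha tails, fell in HT29 (-0.46), as did ARF6 (-0.24). RAB11FIP1 rose in HT29 (0.44), RAB5A in LS513 (0.23) and RAB4A in LS174T (0.46).

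Of the 16 other integrin subunits, 10 were tested, and together they held little of the mRNA, since the 10 genes above made up 92.4% to 98.7% of the alpha and 94.0% to 99.8% of the beta level per library. They were called 2 higher and 1 lower in HT29, 3 and 1 in LS513, 2 and 2 in HCT116 and 1 and 2 in LS174T, also within 2 genes of what the shares of all tested genes would yield (21.1% and 19.6%, 13.7% and 9.90%, 16.8% and 12.3%, and 13.1% and 9.15%). ITGB8, another partner of ITGAV, was lower in 3D in HT29 (14.6 ± 0.9 to 7.33 ± 1.44 CPM), LS174T (22.8 ± 2.5 to 14.4 ± 4.4 CPM) and HCT116 (1.34 ± 0.24 to 0.773 ± 0.111 CPM). ITGA9, which binds tenascin-C, rose in HT29 from 4.87 ± 1.89 to 10.03 ± 0.70 CPM and in LS513 (1.76). ITGA10 fell in LS513 (-2.17), HCT116 (-1.27) and LS174T (-0.95) from at most 1.86 ± 0.07 CPM. ITGB7 rose in LS513 (0.73) and ITGA7 in HCT116 (0.54), and ITGAE, at 17.4 CPM on average, was called in no line. The leukocyte chains ITGAX and ITGB2 had called rises at low counts, ITGAX with 30 to 81 counts per 3D library of HCT116 and 8 to 12 in LS513, and ITGB2 with 8 to 16 in LS174T and 1 to 3 in HT29. ITGA2B and ITGAM were called in no line, and ITGA4 had 0 counts in every library.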

How the data were processed

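The files deposited by the authors hold unnormalized gene counts, 1 file per technical replicate. Reads had been trimmed with Trim Galore 0.4.1, aligned with STAR and counted on exons with HTSeq-count 0.5.3, after reads that aligned more than once were removed. The study's methods name an Ensembl genome and annotation while the submitters' processing notes name hg19, so positions here come from GENCODE 29 on GRCh38, which holds 57980 of 58243 identifiers. The 8 technical replicates of a library were summed (7 for HT29 grown in 3D, replicate 4, and 1 was not analysed here).

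The summed counts were fitted with edgeR 4.0.16 in R 4.3.3 (filterByExpr, TMM, robust quasi-likelihood fit of 24 libraries in 8 groups, two-sided). The fit was also run on counts simulated from its own model, which cannot show whether that model suits these libraries. Members and lists were chosen with earlier results of these data known. Named pathway genes are the up to 3 of at least 1 CPM with the smallest p in the mean over lines and those called alike in all 4 lines, and all other pathway genes (such as FN1, PLEC, TLN1 and CD44) were named after their values were seen. Intervals of fold changes come from the edgeR fit, whereas the counting interval of the ITGB6 ratio and the floors cover counting error only, since reads were counted without molecular identifiers. Promoter windows are from RefSeq. Alternatives were DESeq2 1.42.0 and its size factors, no filter, a replicate block, single lines, a fold cutoff and leaving out each library. Some items are not reported here.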

Additional observations from a re-analysis of the deposited data

Results flagged for a closer look

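The growth effect differed between the lines, by a test of any difference among the 4 effects in edgeR with adjustment over all tested genes, for 9 integrin genes: ITGA3 (adjusted p = 1.9e-06), ITGB4 (7.6e-06), ITGA2 (1.7e-05), ITGB5 (3.2e-05), ITGA5 (0.0035), ITGA6 (0.0055), ITGB6 (0.0093), ITGA1 (0.018) and ITGB1 (0.033). The values of ITGA5 and ITGB6 include a line in which the gene was at or near the floor of 3 counts. The ITGB1 call was lost in 10 of 24 fits that leave out a library (adjusted p = 0.051 to 0.14). Groups of 3 libraries were not tested for single outlying libraries.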

How the results depend on the processing

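Of 10 genes, the counts called were 6 in HT29, 5 for LS513, 6 for HCT116 and 3 for LS174T, and they ran from 4 to 6, 5 to 6, 5 to 7 and 2 to 5 when each library was left out in turn, with the 5 in LS174T reached without replicate 3 of its 3D group, where ITGAV (adjusted p = 0.0092) and ITGB1 (0.030) were also called, and the 2 without replicate 1 of its 2D group. With a cutoff on the fold (log2 under -0.5 or over 1.5), which asks for a larger change in rises than in falls, 2 were called for LS513, 2 for HCT116 and 1 for LS174T. The 2 in HCT116 were ITGB4 and ITGB6, the latter with few counts there. In HT29, ITGA2, ITGA6, ITGAV and ITGB1 were called with this cutoff. With all genes that have at least 1 count, 5 were called in LS174T. The other counts stayed within 1.5 times the main value under DESeq2 and its size factors and in single-line fits. The replicate block gave 5, 5, 6 and 3 genes, and 7 rather than 9 with a difference between lines, without ITGA1 (adjusted p = 0.088) and ITGB1 (0.096). The ITGB5 call in HT29 (adjusted p = 0.14) and the ITGA1 call over lines (0.050) were lost with it. Replicate numbers were not taken to pair libraries, since same-numbered libraries had correlations of -0.19 to 0.28 and some correlated better with another number. Changes of sign were confined to uncalled values. Over lines, ITGA2 was -0.00208 with the replicate block, and ITGB5 was 0.00576 with size factors and 0.00569 with DESeq2. With a library left out, ITGA1 ran from -0.088 to 0.54 in HT29 and from -0.067 to 0.27 in LS174T, ITGA2 from -0.28 to 0.0024 in LS513 and from -0.0070 to 0.091 over lines, ITGA6 from -0.28 to 0.096 in LS174T, ITGB4 from -0.14 to 0.081 in LS174T, ITGB5 from -0.027 to 0.014 over lines, and ITGB6 from -0.11 to 0.032 in HT29 and from -0.055 to 0.073 in LS174T. The causes were not tested. A gene at or under 3 counts cannot be told from absent at this depth, and over lines ITGB6 rests in part on HCT116 and ITGA5 in part on HT29.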
